A study of Homo sapiens with 30 samples.

Results

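Cells carrying a short hairpin RNA (shRNA) against ATM were compared with cells carrying one against CHK1, across all genes measured on bead arrays. The comparison used the 6 arrays labelled shATM and the 6 labelled shCHK1, which are 12 of the 30 arrays of the series. The labels place 3 arrays of each shRNA in set 1 and 3 in set 2, so the difference of shATM minus shCHK1 was taken within each set, 3 against 3 arrays, and a change was counted when it was found in both sets. All 13721 genes with a detected probe entered the test.

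Per the labels, RNA came from MCF-10A, a human breast epithelial cell line that is immortal but not malignant, with cyclin E overexpressed and an shRNA stably expressed, and cells were harvested after 48 hours in culture. The 4 groups compared here, shATM and shCHK1 in each set, therefore share cyclin E overexpression and differ by label in the shRNA. The other 18 arrays carry shControl, shATR or shCHK2 on the same background and entered the normalization, the detection filter and the estimate of the spread, and give reference levels where stated. The column headers mark set 2 on the shRNA name (shATM-2 and shCHK1-2) and do not say whether this is a second shRNA sequence. What distinguishes set 1 from set 2, whether replicates were separate cultures, and whether a knockdown line is 1 clone or a pool are not given in the labels. All p-values and standard errors (SE) therefore rest on array-to-array spread within groups, which may be technical.

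ATM and CHK1 (gene symbol CHEK1) are protein kinases of the DNA damage response. ATM is activated by double-strand breaks and signals to CHK2 and p53, whereas CHK1 acts downstream of ATR when replication forks stall, where it restrains CDK activity, holds back late origins and delays entry into mitosis. Cyclin E activates CDK2 at the start of S phase, and its excess is a known source of replication stress.

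The 12 arrays were close in quality, with 18984 to 20971 detected probes and a signal over background of 16.74 to 21.07. Replicates correlated across genes at r = 0.9903 to 0.9953, shATM with shCHK1 arrays of the same set at 0.9861 to 0.9891, and arrays of the same shRNA in different sets at 0.9688 to 0.9766, so the sets lay further apart than the shRNAs. The epithelial markers KRT5, KRT14, KRT18, EPCAM, CDH1 and ITGB4 were detected on all 12 arrays. Of 13 leukocyte markers with a probe, 5 were detected on none of the 12 arrays (CD3E, CD4, CD8A, ITGAM and NKG7) and 4 on all 12 (CD14, CD68, LYZ and FCGR3A). Of 14 endothelial and fibroblast markers, 8 were detected on none, VWF, CDH5 and PDGFRB among them, and FAP alone was detected on all 12. CDKN2A, which MCF-10A is known to lack through a deletion, was detected on all 3 arrays of every knockdown group and on 0 of the 6 shControl arrays. It did not pass the test between shATM and shCHK1, with log2 differences of -0.04 in set 1 and -0.17 in set 2. A transcript of a gene known to be deleted in the labelled line was thus detected on every knockdown array, all 12 compared here included. It was not detected on the shControl arrays. RNA levels do not show a deletion itself. The identity of the lines behind these labels was not tested, and the main count is also given without the shControl arrays below.

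Both targeted transcripts were lowest under their own shRNA. ATM had log2 intensities of 8.06, 8.12 and 8.15 on the shATM arrays of set 1 against 8.83, 8.81 and 8.63 on the shCHK1 arrays. In set 2 it had 8.29, 8.54 and 8.32 against 9.12, 9.01 and 9.15. The groups did not overlap in either set, and the 6 shATM arrays held the 6 lowest ATM values of all 30 arrays. The log2 difference was -0.65 in set 1 and -0.71 in set 2, or 1.57-fold and 1.63-fold lower (limma, adjusted p = 8.9e-05 and 5.7e-05). A further ATM probe gave -0.56 and -0.65. The shControl arrays had ATM at 8.81, 8.74 and 8.78 in set 1 and 8.635, 8.71 and 8.72 in set 2. In set 2 these lay between shATM and shCHK1.

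CHEK1 had 9.79, 9.90 and 9.96 on the shATM arrays of set 1 against 8.84, 8.92 and 8.77 on the shCHK1 arrays. In set 2 the values were 10.05, 9.68 and 10.17 against 8.59, 8.57 and 8.72. The shCHK1 arrays were lower without overlap in both sets and held the 6 lowest values of the 30 arrays. CHEK1 was 2.06-fold higher in shATM in set 1 and 2.52-fold higher in set 2 (log2 difference 1.04 and 1.33, adjusted p = 7e-08 and 3.9e-09). The shControl arrays had CHEK1 at 9.23, 9.23 and 9.20 in set 1, between shCHK1 and shATM, and at 9.82, 9.98 and 9.63 in set 2. The ATM and CHEK1 folds are between the knockdowns and do not measure the depth of either against shControl. CHEK2 did not pass the test, with differences of -0.30 and -0.04. ATR, whose probe was detected on none of the shATM arrays, did not pass either, with -0.36 in each set (adjusted p = 0.16 and 0.21).

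CCNE1, which encodes cyclin E1, was higher in shATM. Its log2 intensities were 7.54, 7.64 and 7.70 in shATM against 6.77, 7.03 and 7.03 in shCHK1 of set 1, and 7.64, 7.35 and 7.91 against 7.04, 6.92 and 7.12 in set 2. The groups did not overlap in either set, and the difference was 0.68 and 0.60 (1.6-fold and 1.52-fold, adjusted p = 0.00077 and 0.0048). On the shControl arrays the means were 8.56 in set 1 and 8.97 in set 2, above both knockdowns. Another CCNE1 probe, detected on 3 of the 12 arrays, gave -0.06 and 0.26, and the call was lost when all probes of the gene were averaged (0.37 over both sets) and without shATM set 2 replicate 3 (0.57). The labels name cyclin E as overexpressed in all of these groups.

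Few genes differed between shATM and shCHK1 in the same way in both sets. In set 1, 1742 genes (12.7% of those tested) passed an adjusted p of 0.05, 926 (6.75%) higher in shATM and 816 (5.95%) lower. In set 2, 877 genes (6.39%) passed, 455 (3.32%) higher and 422 (3.08%) lower. In both sets with the same direction, 170 genes (1.24%) passed, of which 128 (0.933%) were higher in shATM and 42 (0.306%) lower. These were 9.76% of the set 1 calls and 19.38% of the set 2 calls. Another 103 genes (0.751%) passed in both sets in opposite directions, 65 (0.474%) of them higher in set 1 and lower in set 2, and 38 (0.277%) the reverse. The 2 sets share no array, and across genes their differences correlated at a Pearson r of 0.059 and a Spearman rho of 0.014. Genes are not independent replicates, so no p is given for these.

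The size of the difference itself differed between sets for 1248 genes (9.1%), toward higher in set 2 for 564 (4.11%) and toward lower for 684 (4.99%). Of the 128 genes higher in both sets, 30 differed in size between sets. Of the 42 lower in both sets 0 did by limma's adjusted p, and 5 did at an unadjusted p under 0.05. The median difference over all genes was -0.008 in set 1 and -0.007 in set 2 on the log2 scale, and the median SE of a set difference was 0.145.

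**Figure D1:**
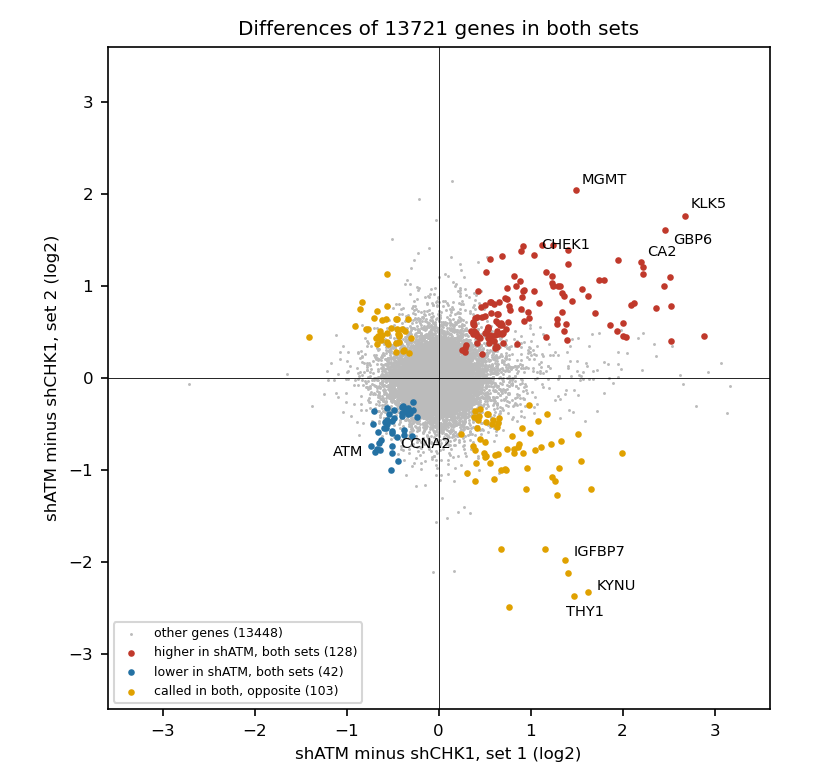
Each point is a gene, with its log2 difference of shATM minus shCHK1 in set 1 on the horizontal axis and in set 2 on the vertical axis. The 128 genes higher in both sets (red) reach further from 0 than the 42 lower in both (blue), and the 103 genes called in opposite directions (yellow) include KYNU, THY1 and IGFBP7 at the lower right.

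Scaling bears on these counts. With median scaling in place of quantile normalization, 70 genes were higher and 49 lower in both sets, so 58.8% were higher against 75.3%. Under that scaling 526 genes were higher and 1116 lower in set 1, and 250 higher and 371 lower in set 2, while the median of all genes lay at -0.089 in set 1 and -0.048 in set 2. Without the shControl arrays, 150 genes were called in both sets, of which 35 were lower.

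Of the genes higher in both sets, 20 (0.146%) had a fitted difference of at least 2-fold in each, BCL11B among them with a measured bound of 1.94-fold in set 1, whereas 0 genes (0.0%) were at least 2-fold lower in each, and 0 at an unadjusted p under 0.05 in both sets. The 12 genes with the largest smaller difference of the sets were KLK5, GBP6, MGMT, ST6GAL1, IL1RN, CA2, BCL11B, MALL, NCCRP1, PLCXD1, SLC2A3 and GALNT5. In none of them did the shATM and shCHK1 arrays overlap in either set. Their products include secreted and membrane proteins, a DNA repair enzyme, a glucose transporter and enzymes of glycosylation. Others are a cytosolic carbonic anhydrase, a GTPase, an F-box-associated protein, a transcription factor and a protein with a phospholipase domain.

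KLK5, a kallikrein protease that cleaves the junctions between shedding skin cells, had the largest difference of these by that measure. Its log2 intensities in set 1 were 11.28, 11.32 and 11.22 in shATM against 8.79, 8.54 and 8.46 in shCHK1. In set 2 they were 7.73, 7.84 and 7.58 against 6.23, 5.59 and 6.04. Levels in set 2 were lower for both shRNAs, with shATM of set 2 below shCHK1 of set 1. KLK5 was 6.4-fold higher in set 1 and 3.39-fold higher in set 2 (adjusted p = 4.2e-14 and 4.1e-10), and the 2 sizes differed (adjusted p = 0.00089). Further KLK5 probes gave 2.79 and 2.61 in set 1 and 1.07 and 0.61 in set 2.

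MGMT removes alkyl groups from guanine in DNA. It had 8.43, 8.52 and 8.28 in shATM against 6.98, 7.01 and 6.76 in shCHK1 of set 1, and 8.43, 8.66 and 8.35 against 6.49, 6.63 and 6.20 in set 2. The shATM levels of the sets overlapped, and MGMT was 2.81-fold and 4.13-fold higher (adjusted p = 3.1e-08 and 4.4e-10). On the shControl arrays the group means were 9.35 and 9.44, above the shATM arrays.

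CA2, a cytosolic carbonic anhydrase that hydrates carbon dioxide, had 10.70, 10.65 and 10.68 in shATM against 8.37, 8.47 and 8.61 in shCHK1 of set 1. In set 2 it had 10.40, 10.09 and 10.13 against 8.93, 8.96 and 8.93. It was 4.58-fold and 2.4-fold higher (adjusted p = 2e-15 and 1.3e-10), and another CA2 probe gave log2 differences of 2.24 and 1.30. SLC2A3, the glucose transporter GLUT3, was 4.67-fold and 2.19-fold higher, from 9.31, 9.20 and 9.16 against 7.09, 6.90 and 6.997 in set 1 and from 7.83, 7.97 and 7.98 against 6.89, 6.84 and 6.65 in set 2. On the shControl arrays SLC2A3 had means of 4.44 and 4.48, below both knockdowns, whereas CA2 had 12.42 and 12.60, above both.

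GBP6, of the interferon-inducible guanylate-binding GTPases, was 5.51-fold and 3.06-fold higher (adjusted p = 2.9e-09 and 1.1e-05). IL1RN, the secreted antagonist of the interleukin-1 receptor, was 3.86-fold and 2.44-fold higher. MALL, a membrane protein of lipid rafts, was 2.36-fold and 2.72-fold higher. GALNT5, which starts mucin-type glycosylation, was 2.19-fold and 2.73-fold higher, and NCCRP1, an F-box-associated protein of squamous epithelia, was 4.65-fold and 2.32-fold higher. These fitted folds were measured on both sides.

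ST6GAL1, which adds sialic acid to the glycans of secreted and surface proteins, was not detected on the shCHK1 arrays of set 1. There it was at least 2.33-fold higher in shATM, and in set 2 it was 2.63-fold higher. BCL11B, a zinc finger transcription factor of T cells and skin, was detected on 0 shCHK1 arrays of set 1 and 1 of set 2, and was higher by at least 1.94-fold in set 1 and 2.29-fold in set 2. PLCXD1, a protein with a phospholipase domain encoded near the end of chromosome X, was 2.24-fold and 2.23-fold higher. For the 5 of these 12 genes with further probes, all 6 further probes had the same sign in both sets, but not all passed the test. That of IL1RN gave 0.09 in set 1, that of NCCRP1 gave 0.45 in set 2 (adjusted p = 0.26), and that of GBP6 gave 0.77 in set 2 against 1.61 on the chosen probe.

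**Figure D2:**
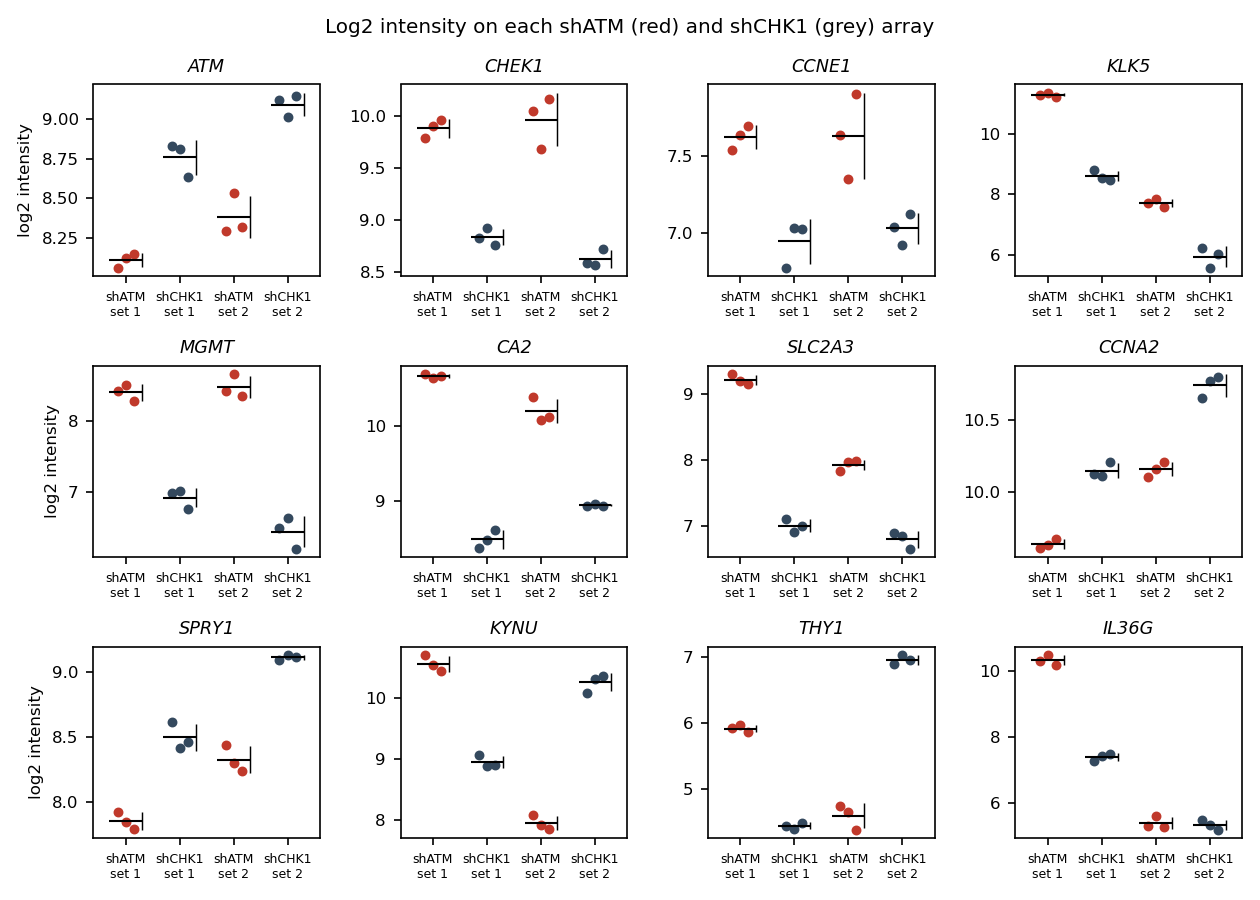
Each panel shows the log2 intensity of a gene on the 3 arrays of each group, with shATM in red and shCHK1 in grey, a horizontal bar at the mean and a vertical bar of 1 SD on each side of it. ATM, CCNA2 and SPRY1 lay lower in shATM of both sets and CHEK1, CCNE1, KLK5, MGMT, CA2 and SLC2A3 higher, KYNU and THY1 changed sides between sets, and IL36G was apart in set 1 alone.

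The genes lower in shATM differed by less. Among the 42 called in both sets, the 12 with the largest smaller difference were EVI2B, ANKRD50, CLIP2, ATM, SPRY1, TMEM161B, ABCC3, SMCO4, C8orf44, SYT15, CCNA2 and SNORA40. SPRY1, an inhibitor of signalling from receptor tyrosine kinases to ERK, had 7.92, 7.84 and 7.79 in shATM against 8.61, 8.41 and 8.46 in shCHK1 of set 1, and 8.44, 8.30 and 8.24 against 9.09, 9.13 and 9.11 in set 2. It was 1.56-fold and 1.72-fold lower without overlap (adjusted p = 3.8e-05 and 6.1e-06). A second SPRY1 probe gave -0.82 and -0.84, while another, detected on 2 of the 12 arrays, gave 0.20 and 0.11.

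ANKRD50, which acts in the return of endosomal cargo to the cell surface, was 1.62-fold and 1.75-fold lower (adjusted p = 4e-05 and 1.3e-05). CLIP2, a linker at microtubule plus ends, was 1.59-fold and 1.7-fold lower, and ABCC3, an efflux pump of organic anions, was 1.58-fold and 1.5-fold lower. The synaptotagmin SYT15 was 1.43-fold and 2.01-fold lower on its brightest probe. The 3 other SYT15 probes gave between -0.28 and 0.20 in set 1, and none of them passed the test. The SYT15 call was lost when the probes were averaged and without shATM set 1 replicate 2 or 3 or shCHK1 set 1 replicate 1 or 3.

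EVI2B, TMEM161B, SMCO4, C8orf44 and SNORA40 had adjusted p-values between 0.0072 and 0.048 in the sets, and their calls were lost under 10 to 17 of 23 alternatives, at least 4 of which left out a single array. C8orf44 was detected on no shATM array, which leaves it at least 1.09-fold lower in set 1 and at least 1.03-fold in set 2, where the groups overlapped. SNORA40, a small nucleolar RNA, was at least 1.31-fold lower in set 1, where the groups overlapped as well.

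At the threshold of the call, HSD17B2 lay just inside, with an adjusted p of 0.048 in set 1 and 0.015 in set 2 and differences of 0.39 and 0.51. DLL3 lay just outside, with 0.05 and 0.00013 and differences of 0.34 and 0.73.

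Over the average of both sets, 1456 genes (10.6%) passed, 794 (5.79%) higher and 662 (4.82%) lower. When each group of 3 arrays was treated as a random block, so that the difference between sets counted as spread, 56 genes passed, 51 higher and 5 lower, and 50 of these 56 were among the 170 called in both sets. ATM (adjusted p = 0.012) and CHEK1 (2.2e-05) passed that fit, as did MGMT (1.7e-05), SLC2A3 (2.2e-05), CA2 (0.00019), GBP6 (0.0024), ANKRD50 (0.0034), CCNA2 (0.017), SPRY1 (0.026) and KLK5 (0.047). Of the 12 higher genes named above 9 passed, and IL1RN (0.1), NCCRP1 (0.072) and PLCXD1 (0.12) did not. Of the 12 lower genes 4 passed and 8 did not, CLIP2 (0.18), ABCC3 (0.42) and SYT15 (0.095) among them. CCNE1 (0.28) did not pass, and of the epithelial genes described below neither did KRT14 (0.76), KRT15 (0.61), KRT16 (0.062), KLK6 (0.41), CNFN (0.15), CD24 (0.95), CDH1 (1.0) or DSP (0.44). Of those epithelial genes, GRHL3 (0.0026), MUC1 (0.012), SLPI (0.022) and S100A7 (0.023) did pass. SPRR2D (0.93), SPRR2A (0.51) and KRT13 (0.32) did not. With median scaling, 30.6% of the calls over the average were higher against 54.5%.

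The other knockdowns give a position to both sides of the difference. Of the 128 genes higher in shATM, 101 were highest in shATM among the 4 knockdowns in both sets, 35 were lowest in shCHK1 in both sets, 16 were both and 8 were neither. Of the 42 lower genes, 36 were lowest in shATM in both sets, 10 were highest in shCHK1, 7 were both and 3 were neither. The genes were called on the shATM and shCHK1 arrays themselves, so these counts are a description.

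A total of 28 gene lists with 720 genes, of which 620 were tested, were described by their members' calls and medians, beside the all-gene medians of -0.008 and -0.007. Over all genes, 6.75% were higher and 5.95% lower in set 1, and 3.32% and 3.08% in set 2. For 9.1% the difference itself differed between sets. In both sets 0.933% were higher, 0.306% lower and 0.751% in opposite directions. At these shares, a count of 0 in both sets does not set a list of this size apart. Epithelial differentiation genes held the most calls in both sets. Keratinocyte differentiation genes form the barrier and shedding machinery of stratified epithelia, and 8 of the 29 measured were higher in both sets and 0 lower (0 at an unadjusted p under 0.05). These were KLK5, KLK6, KLK10 and KLK11, the calcium-binding proteins S100A7 and S100A8, the cornified envelope protein CNFN and the transcription factor GRHL3. In set 1, 23 members were higher and the list's median was 1.51. In set 2, 8 were higher and 1 lower, KRT80, and the median was 0.20. For 21 of the 29 the difference itself differed between sets. With median scaling 6 members were called higher in both sets.

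GRHL3 drives terminal differentiation of the epidermis. It had 9.12, 9.15 and 9.02 in shATM against 7.50, 7.53 and 7.37 in shCHK1 of set 1, and 7.66, 7.97 and 8.01 against 7.14, 6.93 and 6.87 in set 2. The groups did not overlap, and GRHL3 was 3.09-fold and 1.86-fold higher (adjusted p = 2.1e-09 and 7.8e-05), but a further probe detected on 11 of the 12 arrays gave 0.95 and -0.03 and one detected on 3 gave 0.50 and 0.02. CNFN was 1.84-fold higher in set 1 and, with 1 of the 3 shCHK1 arrays of set 2 detecting it, at least 1.98-fold higher in set 2. KLK6 was 2.72-fold higher in set 1 and at least 1.29-fold higher in set 2, where no shCHK1 array detected it. A dim further probe of KLK6, detected on 4 of the 12 arrays, gave -0.34 and -0.21. The calls of KLK6 and GRHL3 were lost when all probes of a gene were averaged.

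The small proline-rich proteins, which are cross-linked into the cornified envelope, differed in set 1 alone by the test. SPRR2D was 8.96-fold higher in set 1 (9.47, 9.74 and 9.39 against 6.45, 6.16 and 6.50). In set 2 it had 4.91, 5.21 and 4.36 against 4.90, 5.07 and 4.77, and the groups overlapped. SPRR2A was 8.39-fold higher in set 1 with a difference of 0.16 in set 2, and the difference between sets passed the test for both genes (adjusted p = 3.8e-10 and 5.5e-08). The chosen KRT13 probe was detected on 0 shCHK1 arrays of set 2, and KRT13 was 4.63-fold higher in set 1 with 0.09 in set 2.

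Of 12 basal epithelial genes, the keratins KRT14, KRT15 and KRT16 were higher in both sets and 0 genes were lower in both (0 unadjusted). KRT15 had 13.14, 13.04 and 13.26 in shATM against 11.89, 11.90 and 11.94 in shCHK1 of set 1, and 9.46, 9.64 and 9.70 against 8.64, 8.45 and 8.59 in set 2. It was 2.35-fold and 2.05-fold higher (adjusted p = 1.5e-09 and 1.2e-07), although its levels in set 2 lay below both groups of set 1. KRT16 was 2.54-fold and 1.64-fold higher. KRT14 was 4.09-fold and 1.37-fold higher, with an adjusted p of 0.04 in set 2, and its call was lost with median scaling and without any 1 of the 6 arrays of set 2. The list's median was 0.32 in set 1 and 0.20 in set 2.

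Of 20 luminal epithelial genes, 3 were higher in both sets and 0 lower (0 unadjusted), with medians of 0.39 and 0.05. MUC1, the surface mucin of luminal cells, was 2.53-fold and 1.9-fold higher on its brightest probe. The 2 dimmer MUC1 probes, detected on 2 and 5 of the 12 arrays, gave 0.32 and 0.71 in set 1 and -0.08 and 0.17 in set 2, and the call was lost when the probes were averaged. SLPI, a secreted protease inhibitor, was 4.01-fold and 1.37-fold higher, a call that was lost without shCHK1 set 2 replicate 3. CD24, a surface glycoprotein, was 1.39-fold and 1.2-fold higher, a call lost without any 1 of the set 2 arrays other than shATM replicate 2. LCN2, a secreted iron-siderophore carrier, had 2.63 in set 1 and 0.04 in set 2.

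Of 22 genes of epithelial junctions, CDH1 (E-cadherin) and DSP (desmoplakin, which ties desmosomes to keratin filaments) were higher in both sets and 0 were lower (0 unadjusted). CDH1 differed by 0.29 and 0.28 on the log2 scale and DSP by 0.43 and 0.44, and neither was called with median scaling, where 0 junction genes were called in both sets. Both calls were also lost without shATM set 2 replicate 2 or 3 or shCHK1 set 2 replicate 2 or 3, that of CDH1 without shATM set 1 replicate 2, and that of DSP without shATM set 1 replicate 3. In set 1, 12 junction genes were higher, among them CGN (1.55), CLDN7 (1.02) and DSG3 (1.00), and in set 2 only CDH1 and DSP passed.

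**Figure D3:**
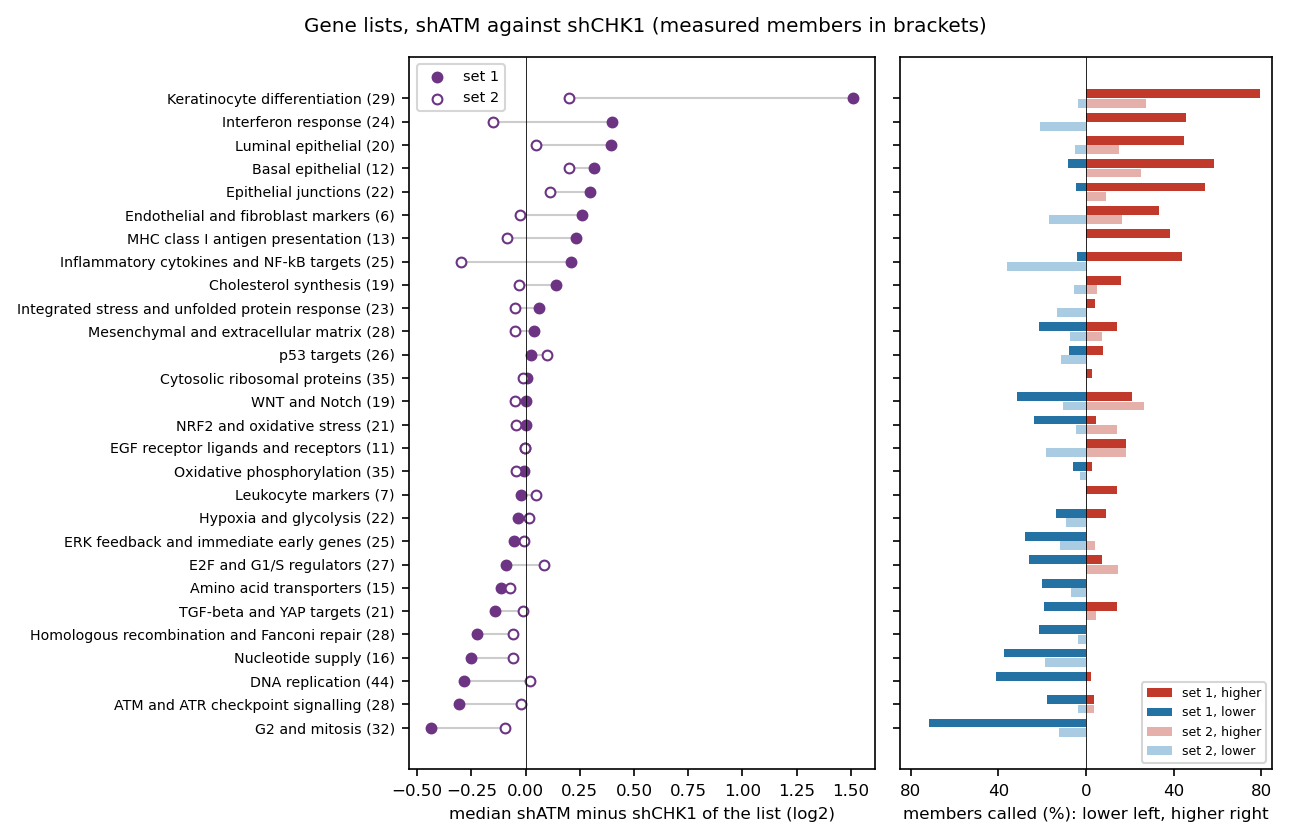
The left panel gives each list's median log2 difference of shATM minus shCHK1 in set 1 (filled) and set 2 (open), and the right panel the percentage of members called higher (right) or lower (left) in each set. Keratinocyte differentiation had a median of 1.51 in set 1 and 0.20 in set 2, and G2 and mitosis had -0.44 and -0.10.

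Genes of the cell cycle lay lower in shATM mainly in set 1. Of 32 genes of G2 and mitosis, 23 were lower in set 1 and 4 in set 2, with medians of -0.44 and -0.10, and for 14 the difference itself differed between sets. Only CCNA2 was lower in both sets. CCNA2 encodes cyclin A2, the partner of CDK2 and CDK1 in S phase and G2. It had 9.61, 9.64 and 9.68 in shATM against 10.13, 10.11 and 10.21 in shCHK1 of set 1, and 10.11, 10.16 and 10.21 against 10.65, 10.77 and 10.80 in set 2. The groups did not overlap, and CCNA2 was 1.42-fold and 1.5-fold lower (adjusted p = 1.5e-05 and 6.3e-06), a call that held under all 23 alternatives.

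AURKB, of the chromosomal passenger complex, differed by -0.09 in set 1 and -0.43 in set 2, the kinetochore motor CENPE by -0.28 and -0.49, and the spindle checkpoint protein MAD2L1 by -0.21 and -0.46. These 3 passed in set 2 and not in set 1, and their difference between sets did not pass (adjusted p = 0.19, 0.41 and 0.39). CENPE and MAD2L1, like CCNA2, lie in a stretch of chromosome 4, described below, with a median of -0.38 in set 2. With the median of neighbouring genes subtracted on each array, 19 members of the list were lower in set 1 and 1 in set 2. Other members passed in set 1 and not in set 2. KIF20A, a kinesin of the spindle midzone, differed by -0.83 in set 1 and -0.02 in set 2, and FOXM1, a transcription factor of G2 genes, by -0.76 and -0.10. ANLN, a scaffold of the contractile ring, differed by -0.62 and 0.07, and NDC80, of the outer kinetochore, by -0.54 and 0.09. For these 4 genes the difference between sets passed (adjusted p = 0.00016 to 0.046), although that of NDC80 was lost under 17 of 23 alternatives, that of ANLN with median scaling and that of FOXM1 when its probes were averaged.

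Promoters of this list are shown because its members moved together in set 1, and because many such genes are known to be controlled through a cell cycle homology region (CHR) and CCAAT boxes. The 250 bases upstream of the annotated start were read from RefSeq (GRCh38.p14) for 26 of the 32 genes and searched on both strands for TTTGAA, a CHR, and for CCAAT, motifs that do not overlap each other. TTTGAA occurred in 13 of the 26 against 13.57% of 27305 promoters, and CCAAT in 20 (76.92%) against 33.04%. Capitals mark these matches in CCNA2, the gene called in both sets, and in KIF23 and ANLN, which hold TTTGAA and were lower in set 1.
CCNA2, chr4:121823884-121824133, minus strand: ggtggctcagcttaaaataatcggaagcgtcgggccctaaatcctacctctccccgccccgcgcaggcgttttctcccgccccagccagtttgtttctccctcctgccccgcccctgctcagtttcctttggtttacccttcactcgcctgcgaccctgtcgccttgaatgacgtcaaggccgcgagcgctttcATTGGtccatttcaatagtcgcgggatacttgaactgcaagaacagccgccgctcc
KIF23, chr15:69414099-69414348, plus strand: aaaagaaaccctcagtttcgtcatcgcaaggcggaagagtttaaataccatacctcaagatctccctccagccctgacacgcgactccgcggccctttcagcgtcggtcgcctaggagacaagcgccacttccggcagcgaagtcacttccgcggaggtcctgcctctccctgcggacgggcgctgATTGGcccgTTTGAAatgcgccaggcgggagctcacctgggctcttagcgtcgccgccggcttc
ANLN, chr7:36389612-36389861, plus strand: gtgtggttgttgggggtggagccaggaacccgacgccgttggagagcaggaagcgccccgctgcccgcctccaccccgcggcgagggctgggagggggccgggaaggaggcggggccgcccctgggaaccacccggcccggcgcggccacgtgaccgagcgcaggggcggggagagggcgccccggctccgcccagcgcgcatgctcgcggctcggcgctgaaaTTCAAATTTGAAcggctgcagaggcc
CCNA2 held no TTTGAA in this window and CCAAT at 56 bases before the start. TTTGAA was the only form of a CHR searched, so other forms were not looked for in CCNA2. KIF23, a kinesin of cytokinesis, held TTTGAA at 55 and CCAAT at 64 bases before the start and differed by -0.64 in set 1 and -0.10 in set 2. ANLN held TTTGAA at 20 and 26 bases and no CCAAT. KIF20A, the member with the lowest set 1 difference (-0.83), held no TTTGAA, and CDK1, which held it, differed by -0.19 and 0.29. A match is a description of letters and was not tested as a site.

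Of 44 DNA replication genes, 18 were lower and 1 higher in set 1, with a median of -0.28. In set 2, 0 passed by limma's adjusted p (4 higher and 4 lower at an unadjusted p under 0.05), and the median was 0.02. In both sets 0 were called (2 lower and 0 higher unadjusted), and for 10 the difference itself differed between sets. GINS4, of the replicative helicase, differed by -0.84 in set 1 and 0.29 in set 2, WDHD1 by -0.78 and 0.40, the clamp loader subunit RFC1 by -0.70 and 0.00, and the polymerase epsilon subunit POLE2 by -0.55 and 0.30. The 2 further WDHD1 probes gave -0.46 and -0.09 in set 1.

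Of 16 genes of nucleotide supply, 6 were lower in set 1 and 3 in set 2. DCK, which phosphorylates salvaged deoxycytidine, was the member lower in both, at 1.47-fold and 1.41-fold (adjusted p = 0.00028 and 0.0018). Its call was lost when its probes were averaged or chromosome neighbours subtracted. With chromosome neighbours subtracted, 3 of the 16 were lower in set 1 and 0 in set 2. Of 28 genes of homologous recombination and Fanconi repair, 6 were lower in set 1 and 1 in set 2, against 5.95% and 3.08% of all genes. In both sets 0 were called (1 lower unadjusted), against 1.24% of all genes. Among 28 genes of ATM and ATR checkpoint signalling, CHEK1 and ATM themselves were the members called in both sets, and the median was -0.31 in set 1 and -0.02 in set 2. PLK4, the kinase that starts centriole duplication, is in none of the 28 lists and was named for its place on chromosome 4. It was 1.63-fold and 1.41-fold lower, a call that was lost without shATM set 2 replicate 2 and with chromosome neighbours subtracted.

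Of 27 E2F and G1/S regulators, CCNE1 alone was called in both sets, against 0.933% of all genes higher in both. For 10 the difference itself differed between sets, against 9.1% of all genes. The D-type cyclin CCND1 had -0.81 in set 1 and 0.06 in set 2, the CDK inhibitor CDKN2B 0.89 and -0.21, the pocket protein RBL1 -0.55 and 0.21, and the activator E2F2 -0.07 and 0.71. A further CDKN2B probe gave 0.39 and 0.06.

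Calls among genes of interferon response and inflammation were mostly higher in set 1 and lower in set 2, but few single genes were called in both, 1 of 24 and 4 of 25, all in opposite directions. Of 24 interferon response genes, 11 were higher and 0 lower in set 1 (0 unadjusted), while 0 were higher (2 unadjusted) and 5 lower in set 2. The medians were 0.40 and -0.15, and for 12 the difference differed between sets. SAMD9 was 2.83-fold higher in set 1 with 0.18 in set 2, and IFI6 was 2.75-fold higher in set 1 with -0.37 in set 2. A further IFI6 probe gave 0.52 and 0.05. ISG20, a nuclease induced by interferon, was called in opposite directions, 1.53-fold higher and 1.79-fold lower. IFIT1, which binds viral RNA, had 0.42 in set 1 and was 1.8-fold lower in set 2.

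Of 25 inflammatory cytokines and NF-kB targets, 11 were higher and 1 lower in set 1, against 0 higher (0 unadjusted) and 9 lower in set 2, with medians of 0.21 and -0.30. CXCL8, a chemokine that attracts neutrophils, had 13.37, 13.57 and 13.74 in shATM against 12.99, 12.96 and 12.92 in shCHK1 of set 1. In set 2 it had 9.75, 9.81 and 9.72 against 10.76, 11.02 and 10.80. It was 1.52-fold higher in set 1 and 2.14-fold lower in set 2 (adjusted p = 4.4e-05 and 1.1e-08). RELB, an NF-kB subunit, the chemokine CXCL2 and PTGS2, the inducible cyclooxygenase, were also called higher in set 1 and lower in set 2. CXCL8 and CXCL2 lie in a stretch of chromosome 4, described below, with a median of -0.38 in set 2. With the median of neighbouring genes subtracted on each array, 10 members were higher and 1 lower in set 1. In set 2, 1 was then higher and 5 lower, and the list's medians were 0.26 and -0.26. IL36G, an epithelial cytokine of the interleukin-1 family, was 7.62-fold higher in set 1 with 0.06 in set 2, and the acute phase protein SAA1 was 3.62-fold higher with 0.00.

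Some of the genes called in opposite directions differed by more than 2-fold in each set. KYNU, kynureninase of tryptophan breakdown, had 10.71, 10.55 and 10.46 in shATM against 9.07, 8.88 and 8.90 in shCHK1 of set 1. In set 2 it had 8.07, 7.92 and 7.85 against 10.10, 10.32 and 10.38. It was 3.08-fold higher in set 1 and 5.0-fold lower in set 2, and the difference between sets was -3.95 (adjusted p = 4e-17). Another KYNU probe gave 1.57 and -2.06.

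THY1, a surface glycoprotein that is also a marker of fibroblasts, was detected on no shCHK1 array of set 1 and no shATM array of set 2. It was at least 1.97-fold higher in set 1 and at least 3.79-fold lower in set 2. The summed log2 level of the 6 tested endothelial and fibroblast markers, THY1 included, was 8.43 to 8.49 in shATM and 7.81 to 7.93 in shCHK1 of set 1, and 8.64 to 8.96 and 8.55 to 8.74 in set 2. The part of such cells in the THY1 values was not tested. GSPT2, a translation termination factor, was 2.66-fold higher and 4.36-fold lower. IGFBP7, a secreted binding protein of growth factors, was 2.6-fold higher and 3.94-fold lower. UBE2L6, the enzyme that conjugates ISG15, was 3.14-fold higher and 2.31-fold lower, but a further probe detected on 11 of the 12 arrays gave 1.03 and -0.29, which did not pass in set 2 (adjusted p = 0.61). CTXN1 was 2.45-fold higher and 2.41-fold lower.

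The remaining lists held few shared calls, beside 0.933% of all genes higher and 0.306% lower in both sets. Of 25 genes of ERK feedback and the immediate early response, SPRY1 and EGR1 were lower in both sets and 0 were higher (0 unadjusted). EGR1, an early growth response transcription factor, differed by -0.31 and -0.38, a call lost without shATM set 1 replicate 2 or 3, shCHK1 set 1 replicate 1 or 3, or shCHK1 set 2 replicate 1. Of 19 WNT and Notch genes, HES1, a Notch target, was 1.98-fold and 1.58-fold higher, and DKK1, a secreted WNT antagonist, was 1.22-fold and 1.2-fold lower, a call lost under 13 of 23 alternatives, among them without any 1 array of set 2. Of 35 genes of oxidative phosphorylation, SDHA, a subunit of succinate dehydrogenase, was 1.48-fold and 1.26-fold lower, a call lost without shATM set 2 replicate 1 or 3 or shCHK1 set 2 replicate 1, and 0 were higher in both (1 unadjusted). Of 35 cytosolic ribosomal proteins, 1 passed in set 1 and 0 in set 2 (1 unadjusted), against 12.7% and 6.39% of all genes.

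Stretches of neighbouring genes shifted together, in different places in each set. Median differences were taken over 339 windows of 40 tested genes in chromosome order, and windows beyond 0.15 on the log2 scale were counted, a limit chosen after the values were seen. In set 1, 23 windows lay beyond it and in set 2, 8, and 0 windows lay beyond it with the same sign in both sets. In set 1 the median over the 600 tested genes of chromosome 5 was -0.20, against -0.02 in set 2, and 156 of them were lower and 23 higher. On chromosome 10, 80 genes from UPF2 to ZNF37BP had a median of -0.21 in set 1 and 0.01 in set 2.

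In set 2, 200 genes of chromosome 4 from FIP1L1 to LARP1B had a median of -0.38, with 155 of the 200 below 0 and 92 called lower, against -0.05 in set 1. Relative to each gene's mean over the 30 arrays, the array medians of this stretch were -0.20 to -0.19 in shATM and -0.20 to -0.12 in shCHK1 of set 1. In set 2 they were -0.16 to -0.14 in shATM and 0.17 to 0.19 in shCHK1. The shControl arrays had 0.21 to 0.27 in set 1 and 0.23 to 0.24 in set 2. For shATR the values were -0.20 to -0.12 in set 1 and 0.19 to 0.23 in set 2, and for shCHK2 0.02 to 0.05 and 0.24 to 0.26. The stretch thus lay below shControl in shATM of both sets and in shCHK1 of set 1, whereas shCHK1 of set 2 lay near the shControl level. On chromosome 8, 120 genes from ARFGEF1 to EBAG9 had a median of 0.22 in set 2 and -0.09 in set 1.

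**Figure D4:**
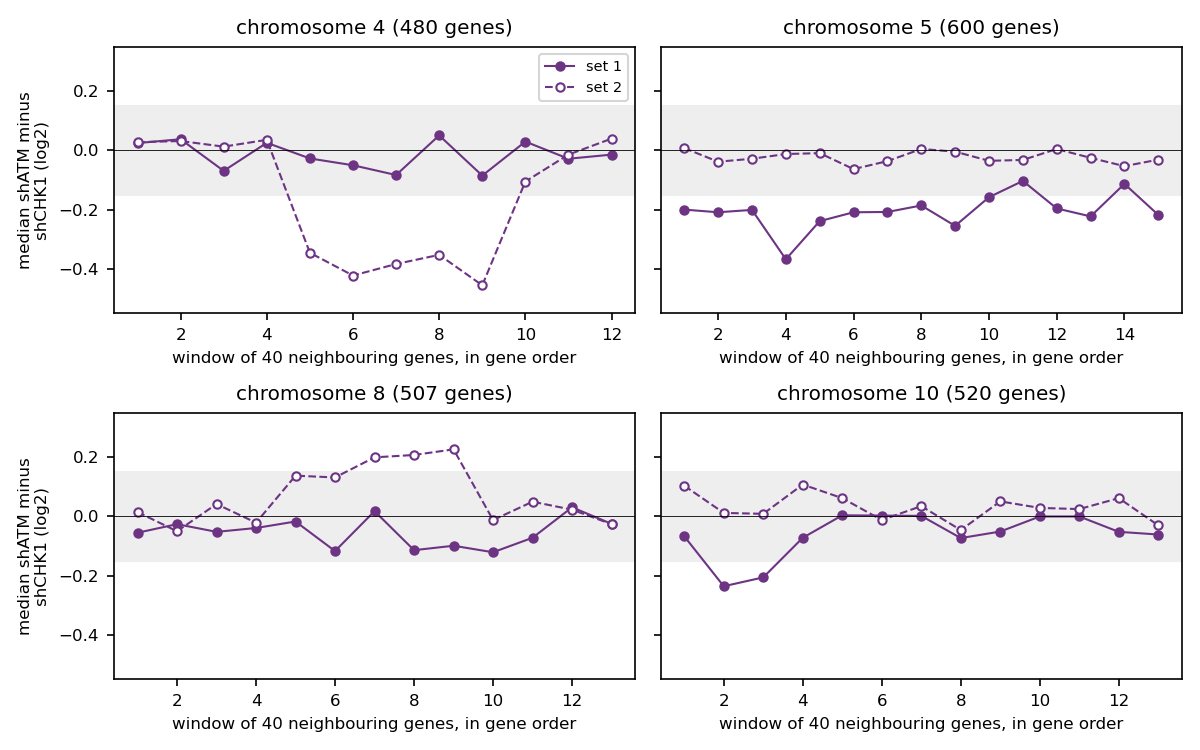
Each point is the median log2 difference of shATM minus shCHK1 over a window of 40 neighbouring genes, in gene order along chromosomes 4, 5, 8 and 10, for set 1 (filled, solid line) and set 2 (open, dashed line), with the range of 0.15 on each side of 0 shaded. Chromosome 5 lay below 0 in set 1, and 200 genes of chromosome 4 lay at -0.38 in set 2.

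These stretches bear on the genes lower in both sets. Of the 42, 19 (45.24%) were on chromosomes 4 and 5, 10 on chromosome 4 and 9 on chromosome 5, against 7.959% of the tested genes. All 10 on chromosome 4 lay in the stretch from FIP1L1 to LARP1B: ANKRD50, SPRY1, CCNA2, GPAT3, ARSJ, DCK, PLK4, PLA2G12A, ANTXR2 and ANXA5. After the median of neighbouring genes was subtracted on each array, an alternative chosen after seeing the data, 121 genes were higher and 22 lower in both sets, and 106 and 17 of these were also called without it. Of the 19, the 6 genes ANKRD50, SPRY1, CCNA2, ARSJ, GPAT3 and SDHA were still called. With windows that shrink toward the chromosome ends in place of full ones there, SDHA and PLCXD1, which lie near an end, lost their calls. Whether a shift of the whole stretch sets the other calls was not tested.

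Of the 128 higher genes, 8 were on chromosomes 4 and 5. VCAN, the matrix proteoglycan versican, was 5.71-fold and 2.14-fold higher, S100P, a calcium-binding protein, 5.46-fold and 2.0-fold, and RBM47, an RNA-binding protein of epithelia, 4.37-fold and 1.76-fold. NMU, the peptide neuromedin U, was 3.34-fold and 2.09-fold higher, and GUCY1A1, a subunit of soluble guanylate cyclase, at least 3.38-fold and 2.09-fold. F12, coagulation factor XII, was 1.65-fold and 1.83-fold higher.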

How the data were processed

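Total RNA of 30 samples was amplified, biotin labelled and hybridised to Illumina bead arrays, per the labels' protocols. The authors deposited linear intensity values for each probe, not background subtracted. Per the file headers, a detection p-value stands beside each intensity. The authors also deposited log2 values for the 30 arrays. Their scale and direction follow the intensities (r = 0.9983 or above with the log2 intensity of the same array), each column has a median of 6.8775, and the steps behind them are not given in the sources used here. Scanner software and genome build are not given either.

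Background correction and quantile normalization used neqc of limma 3.58.1 (R 4.3.3, offset 16), which inferred its negative controls from detection p-values. Probes with a detection p under 0.05 on at least 3 arrays were kept (26967). Of 47231 probes, 30113 had 1 gene symbol, 8 had several and 17110 had none, and the last 2 kinds were not used by name. Each gene was represented by its brightest kept probe, and fold changes come from the log2 scale. A linear model with 10 group means (20 residual degrees of freedom) gave the differences within sets, their average and the difference between sets, with two-sided p-values adjusted by Benjamini-Hochberg over 13721 genes. A gene was called at an adjusted p under 0.05. Precision is limited by how many arrays there are.

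A fold is given as a bound if fewer than 2 of the 3 dimmer arrays detected the probe; each dimmer array then took at least its lowest detected signal. Named genes were ATM, ATR, CHEK1, CHEK2 and CCNE1, the 12 higher and 12 lower genes and the 6 opposite ones with the largest smaller difference of the sets, up to 4 members per list called in both sets, and the genes at the threshold. List members that differ between sets, other list members, and genes on chromosomes 4 and 5 were chosen after their values were seen. The members and lists were chosen with earlier results of these data known. Replicate numbers were checked for pairing: the deviations of same-numbered arrays correlated at -0.0263 to 0.0156, so the numbers do not pair samples. Alternatives covered the authors' log2 values, background correction, scaling, filters, probe averaging, only the 12 arrays, blocks, chromosome medians and leaving out each array. The procedure was tested on simulated data.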

Additional observations from a re-analysis of the deposited data

Results flagged for a closer look

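The results below were singled out because the difference of shATM minus shCHK1 itself differed between the sets (limma, adjusted p under 0.05 over all genes). Each value is the set 2 difference minus the set 1 difference on the log2 scale. Groups of 3 arrays are too small for a search for single outlying arrays.

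Among genes higher in both sets, the difference was smaller in set 2 for KLK5 (-0.92), CA2 (-0.93), NCCRP1 (-1.01), SLC2A3 (-1.09), KRT16 (-0.63), KRT14 (-1.58), SLPI (-1.55), GRHL3 (-0.73), S100A7 (-2.43), GUCY1A1 (-0.74), RBM47 (-1.31), S100P (-1.44) and VCAN (-1.41). The keratinocyte genes SPRR2D (-3.25), SPRR2A (-2.91) and KRT13 (-2.12) passed in set 1 and not in set 2.

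The genes called in opposite directions were KYNU (-3.95), THY1 (-3.84), GSPT2 (-3.54), IGFBP7 (-3.36), UBE2L6 (-2.86) and CTXN1 (-2.56). Of the interferon and inflammation lists, IFI6 (-1.83), ISG20 (-1.45), SAMD9 (-1.32), IFIT1 (-1.27), IL36G (-2.87), SAA1 (-1.85), CXCL8 (-1.71) and RELB (-1.36) differed toward set 1.

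Cell cycle genes differed the other way. The values were 1.19 for WDHD1, 1.14 for GINS4, 0.84 for POLE2 and 0.70 for RFC1 of DNA replication, and 0.82 for KIF20A, 0.69 for ANLN, 0.67 for FOXM1 and 0.63 for NDC80 of G2 and mitosis. Of the G1/S regulators, CCND1 (0.87), E2F2 (0.78) and RBL1 (0.76) were relatively higher in set 2 and CDKN2B (-1.10) lower.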

How the results depend on the processing

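ATM, CHEK1 and the differences of the named genes kept their sign under the alternatives run, but the balance of calls turned with median scaling. It gave 526 higher and 1116 lower in set 1, 250 and 371 in set 2, 461 and 1048 over the average, and 408 and 395 for the difference between sets, against 926 and 816, 455 and 422, 794 and 662, and 564 and 684. The count of genes whose difference differs between sets was 803 with median scaling against 1248. The count over the average of both sets was 56 with a random block per group against 1456. Of the genes called in both sets, 20 had a log2 difference of at least 1 in each set, and 21 with chromosome medians subtracted. Leaving out each array in turn gave 137 to 151 genes called in both sets, 1228 to 1781 in set 1, 635 to 860 in set 2, 1166 to 1333 over the average and 969 to 1144 that differ between sets. ATM lay between -0.717 and -0.656 and CHEK1 between 1.138 and 1.26. Without shATM set 1 replicate 2, 27 genes were lower in both sets against 42, and 516 were lower in set 1 against 816. The cause was not tested.

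The replicate numbers did not pair the samples. With the replicate block, 157 genes were called in both sets, 1679 in set 1, 827 in set 2, 1392 over the average and 1157 that differ between sets, with ATM at -0.678 and CHEK1 at 1.188. The authors' log2 values gave 223 genes called in both sets. Of the results for named genes, 70 to 92 kept their side of the threshold under each alternative. Dim probes limit ATR, BCL11B, C8orf44, THY1 and the second CCNE1 probe. What separates the sets is not given in the labels, so set cannot be told apart from batch or from a second shRNA sequence.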

Other observations

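Targets of p53, which ATM is known to activate after DNA breaks, had medians of 0.03 and 0.10 over the 26 measured. By limma's adjusted p, 2 were higher and 2 lower in set 1, and 0 higher and 3 lower in set 2. In both sets 0 were called in the same direction (0 higher and 1 lower at an unadjusted p under 0.05). With 1.24% of all tested genes called so, 0 of 26 does not set this list apart. CDKN1A, the CDK inhibitor p21, differed by 0.24 in set 1 and -0.15 in set 2 and did not pass. MDM2, which marks p53 for degradation, had 0.24 in set 1 and -0.95 in set 2, where it passed as lower. GADD45A was higher in set 1 (0.58) with 0.16 in set 2.

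Of 13 genes of MHC class I antigen presentation, 5 were higher in set 1 (HLA-B, HLA-F, TAPBP, PSMB8 and PSMB10), against 6.75% of all genes. In set 2, 0 passed (2 higher and 2 lower unadjusted), against 6.39% of all genes. HLA-B differed by 0.93 and -0.42, and the difference between sets passed (adjusted p = 0.00023), but HLA genes share sequence and their probes may read more than 1 of them.

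Of 28 mesenchymal and extracellular matrix genes, 0 were called in both sets in the same direction (3 higher and 0 lower unadjusted), against 1.24% of all genes. In opposite directions 2 were called, against 0.751% of all genes. N-cadherin, CDH2, differed by 1.30 in set 1 and -0.98 in set 2, and tenascin, TNC, by 0.65 and -0.44. The intermediate filament gene VIM was lower in set 1 (-1.09) with -0.20 in set 2, and the protease MMP9 was higher in set 1 (2.54) with 0.35 in set 2. In the WNT and Notch list the secreted antagonist SFRP1 had -0.91 and 0.56 and the ligand JAG2 -0.45 and 0.54, each called in both sets.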
